A study of Homo sapiens with 6 samples.

Results

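The 8 genes described here encode transcription factors of the embryonic kidney: PAX2, PAX8, LHX1, WT1, SIX2, EYA1, SALL1 and GATA3. They were taken by name, with no threshold on a measured value, and all 8 were found by Ensembl identifier among the 62754 genes of the count table. RNA-seq was performed on 3 control libraries of HEK293 cells, labelled as control with no vector named, and on 3 libraries of HEK293 cells in which FAM60A had been targeted. FAM60A, whose current symbol is SINHCAF, belongs to the Sin3 corepressor, which removes acetyl groups from histones through its HDAC enzymes. The targeted cells were a pool, not a clone, obtained after transfection of a CRISPR/Cas9 vector with several guide RNAs and puromycin selection. All libraries came from cells grown in DMEM with fetal bovine serum and Glutamax, and the labels name the line both as HEK293 and as HEK293T, its derivative that carries the SV40 large T antigen. Control replicates 1 to 3 held 92736586, 93172005 and 93346824 counts in total, and knockout replicates 1 to 3 held 88361827, 91279417 and 90771711. The labels do not say whether the replicates were separate cultures, so p-values measure the spread between these libraries, which may be technical.

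The kidney forms from an epithelial duct, the ureteric bud, and from the mesenchyme around its tips. SIX2, SALL1, EYA1 and WT1 act in the cap mesenchyme, the pool of nephron progenitors, where SIX2 keeps progenitors from differentiating and EYA1 works as a transcriptional coactivator. PAX2, PAX8, LHX1 and GATA3 act in the nephric duct that gives rise to the bud, and PAX2, PAX8 and LHX1 are used again when progenitors become epithelial. HEK293 was derived from human embryonic kidney cells, so these genes bear on which parts of that programme the line transcribes.

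Control replicate 3 stood apart from the other controls, and this touched 4 of the 8 genes. Over the 7 genes with enough reads to test, control replicates 1 and 2 differed by a root-mean-square log2 CPM (counts scaled to library size after TMM) of 0.16. Control replicate 3 differed from them by 1.19 and 1.07, and from the knockout libraries by 0.95 to 1.01. Knockout libraries differed from each other by 0.16 to 0.20. Across 21031 genes (mean count 10 or more), control replicate 3 differed at least 4-fold from control replicates 1 and 2 in 1588 and 1554 genes, and from the knockout libraries in 664 to 723. Each of the 7 factors tested is therefore given with and without this library.

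The targeted gene was lower in every library labelled knockout. FAM60A had 11028, 10165 and 12792 counts in control replicates 1 to 3 and 5684, 5793 and 5449 in knockout replicates 1 to 3. Control replicate 3 thus held FAM60A at the level of a control library, and the groups did not overlap. The log2 fold change (log2FC, knockout over control) was -0.85, with a standard error (SE) of 0.11 (edgeR adjusted p = 0.00863), and -0.78 without control replicate 3.

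PAX8 was close to background, and the other 7 factors were transcribed. Levels were compared per length, as CPM per kb of annotated exon, averaged over the 6 libraries and set beside 19979 protein-coding genes. GATA3 was highest at 3.62 CPM per kb, above 61.8% of protein-coding genes, followed by SALL1 at 3.25, above 60.0%. SIX2 reached 2.01 and LHX1 1.29 CPM per kb. EYA1 lay at 0.984, WT1 at 0.744 and PAX2 at 0.381 CPM per kb, the last above 38.7% of protein-coding genes. PAX8 lay at 0.00735 CPM per kb, above 17.3%. The ranges over the 6 libraries overlapped between every pair of neighbours in this order except PAX2 and PAX8. Neighbouring places among the other 7 were thus not resolved by these ranges. Genes further apart could separate, as the lowest SALL1 level of 2.08 CPM per kb exceeded the highest EYA1 level of 1.4. GATA3 and SALL1 held places 1 and 2, in either order, in every library. With the longest transcript as length, GATA3, SALL1, PAX2 and PAX8 kept their places, while LHX1 moved from 4 to 6, SIX2 from 3 to 4, EYA1 from 5 to 3 and WT1 from 6 to 5. In control replicates 1 and 2 the highest per-length level was that of SALL1, and in control replicate 3 and all knockout libraries it was that of GATA3. LHX1 ranked 4 in control replicates 1 and 2 and 6 in the remaining libraries.

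**Figure D1:**
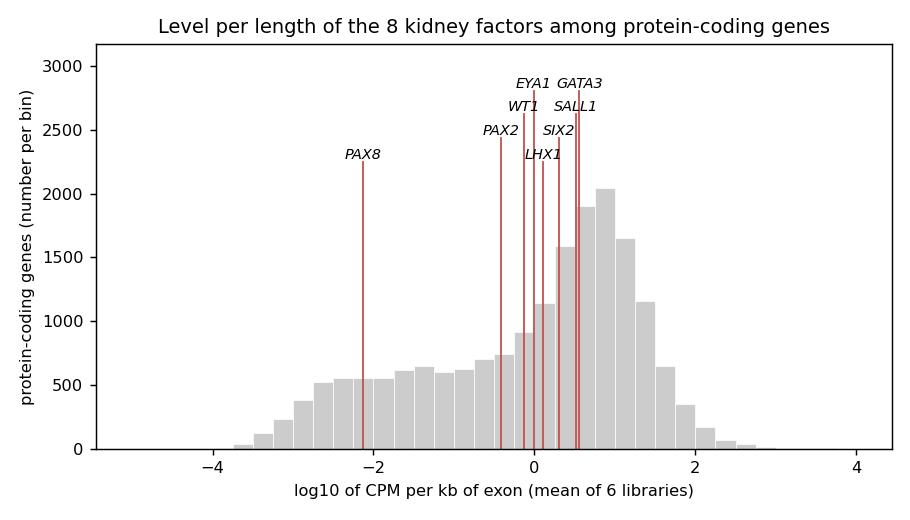
Histogram of protein-coding genes by log10 of their level (CPM per kb of exon, mean of 6 libraries), with a red line at each kidney factor. PAX8 lies far to the left at 0.00735 CPM per kb, and the other 7 lie between 0.381 and 3.62.

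SIX2, the regulator of nephron progenitor self-renewal, was lower in the knockout libraries. SIX2 (ENSG00000170577) lies on the reverse strand of chromosome 2 of GRCh37 from 45232321 to 45236591. Control replicates 1 to 3 held 609, 669 and 635 counts and knockout replicates 1 to 3 held 198, 219 and 167. All 3 controls, control replicate 3 included, lay together and above all 3 knockout libraries. Expression fell from 6.60 ± 0.351 to 2.25 ± 0.316 CPM (SD, n = 3 each), which is 2.94-fold lower by the fitted value. The log2FC was -1.55 (SE 0.18, edgeR adjusted p = 0.00632), and an exact permutation test of CPM returned p = 0.1, below which 3 against 3 libraries cannot go. Without control replicate 3 the log2 fold change was -1.59 (edgeR adjusted p = 2.74e-10). The call was lost without knockout replicate 1 (edgeR adjusted p = 0.0613) or 3 (0.0545), within a range of 9.25e-15 to 0.0613 over 12 alternatives.

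Of the 8 genes, SIX2 and PAX8 each have a single start site in the RefSeq promoter table, and their upstream sequences are shown because one fell in the knockout libraries and the other was near background in all of them. PAX2, WT1 and GATA3 have several start sites in the table. LHX1, SALL1 and EYA1 are missing from it. The 250 bases before each start are given 5′ to 3′ on the gene's strand, in GRCh38.p14, with matches to 5 short motifs in capitals, each searched on both strands. The core promoter motifs were the box TATAAA near many start sites, the sequence CCAAT that the factor NF-Y binds, and the box GGGCGG that Sp1-type proteins bind. The others were GATAA, the core that GATA-type zinc fingers bind, and the letters TAATTA, which LIM homeodomain proteins bind.
SIX2, chr2:45009453-45009702, reverse strand: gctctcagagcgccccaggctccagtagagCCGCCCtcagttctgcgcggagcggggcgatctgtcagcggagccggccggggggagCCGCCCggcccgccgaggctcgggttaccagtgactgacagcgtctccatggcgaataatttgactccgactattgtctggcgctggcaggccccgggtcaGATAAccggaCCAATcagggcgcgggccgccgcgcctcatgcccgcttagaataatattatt
PAX8, chr2:113278922-113279171, reverse strand: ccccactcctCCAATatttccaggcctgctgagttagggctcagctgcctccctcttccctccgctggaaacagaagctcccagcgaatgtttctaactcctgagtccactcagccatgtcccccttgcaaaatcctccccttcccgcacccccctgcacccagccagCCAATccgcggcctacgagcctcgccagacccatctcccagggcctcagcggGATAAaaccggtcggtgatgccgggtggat
The SIX2 stretch holds a GATAA match that begins 62 bases and a CCAAT match that begins 52 bases before the start, with GC boxes on the opposite strand at 220 and 163 bases. The PAX8 stretch holds CCAAT matches at 240 and 82 bases and a GATAA match at 30 bases before the start. Among 35116 promoters of the table, 20.4% hold GATAA, 32.0% CCAAT, 42.6% the GC box, 10.7% TATAAA and 4.35% TAATTA in the same window. A match describes the letters only, and binding was not measured in these data.

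SALL1, a zinc finger protein of the cap mesenchyme that is mutated in a human syndrome with kidney malformation, was also lower. SALL1 (ENSG00000103449; chromosome 16 of GRCh37, 51169893 to 51186245, reverse strand) had 2743, 2677 and 2333 counts in control replicates 1 to 3. The knockout libraries held 1104, 1252 and 1349 counts. Control replicate 3 was the lowest control but stayed well above every knockout library. Expression fell from 26.7 ± 2.25 to 14.2 ± 1.08 CPM (SD, n = 3 each), with a log2FC of -0.91 (SE 0.12, edgeR adjusted p = 0.00913). Without control replicate 3 it was -1.01 (edgeR adjusted p = 8.64e-10). The call was lost without knockout replicate 1 (edgeR adjusted p = 0.0749), 2 (0.0570) or 3 (0.0634), within a range of 8.64e-10 to 0.0749 over 12 alternatives.

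EYA1, a transcriptional coactivator with phosphatase activity, differed or not depending on control replicate 3. EYA1 (ENSG00000104313; chromosome 8 of GRCh37, 72109668 to 72504260, reverse strand) had 1273, 1093 and 458 counts in control replicates 1 to 3 and 719, 752 and 771 in the knockout libraries. The knockout libraries lay close together and between the controls. Control libraries averaged 9.74 ± 4.41 CPM and knockout libraries 8.61 ± 0.103 CPM (SD, n = 3 each), with a log2FC of -0.18 (SE 0.36, edgeR adjusted p = 0.762). EYA1 passed the test without control replicate 3, with a log2FC of -0.54 (edgeR adjusted p = 2.59e-05, range over 12 alternatives 2.59e-05 to 0.953).

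WT1, the zinc finger protein needed for nephron progenitor survival and later for podocytes, likewise depended on this library. WT1 (ENSG00000184937; chromosome 11 of GRCh37, 32409321 to 32457110, reverse strand) had 409, 418 and 685 counts in control replicates 1 to 3 and 535, 677 and 580 in the knockout libraries. Control replicate 3 lay within the range of the knockout libraries on the CPM scale, and the other controls below it. Means were 5.22 ± 1.62 and 6.88 ± 0.733 CPM (SD, n = 3 each), with a log2FC of 0.40 (SE 0.25, edgeR adjusted p = 0.299). It was 0.65 and passed the test without control replicate 3 (edgeR adjusted p = 2.46e-05, range over 12 alternatives 2.46e-05 to 0.592). WT1-AS, which is read from the opposite strand and overlaps WT1 by 47 exonic bases, had 32, 37 and 53 counts in control and 53, 67 and 47 in knockout libraries (log2FC 0.61, edgeR adjusted p = 0.176).

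LHX1, a LIM homeodomain protein of the nephric duct and of the early nephron, showed the lowest knockout level relative to control. LHX1 (ENSG00000273706; chromosome 17 of GRCh37, 35294084 to 35301912, forward strand) had 1320, 1178 and 390 counts in control replicates 1 to 3 and 225, 225 and 237 in the knockout libraries. Control replicate 3 lay 1.67 below the mean of control replicates 1 and 2 and 0.61 above the mean of the knockout libraries on the log2 CPM scale, and the groups did not overlap. Expression fell from 9.96 ± 5.17 to 2.64 ± 0.0656 CPM (SD, n = 3 each), with a log2FC of -1.91 (SE 0.45, edgeR adjusted p = 0.0353). Without control replicate 3 the log2 fold change was -2.32 (edgeR adjusted p = 1.82e-14). No other fit that lacked a single library kept the call. Without any of the other 5 libraries the edgeR adjusted p lay between 0.0951 and 0.15, and with limma-voom it was 0.0886.

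The divergent transcript of LHX1, LHX1-DT, followed the same order. It had 611, 722 and 289 counts in control replicates 1 to 3 and 90, 89 and 88 in the knockout libraries. The log2FC was -2.45 (SE 0.36, edgeR adjusted p = 0.0111; -2.78 without control replicate 3), and the call did not hold when knockout replicate 1, 2 or 3 was omitted. AATF, the protein-coding gene that begins 4312 bases beyond LHX1 on chromosome 17, kept between 9682 and 14512 counts in every library (log2FC -0.25, edgeR adjusted p = 0.106). Neighbouring genes were looked up after the values of the 8 factors had been seen. Of the nearest protein-coding genes on each side of the 8 factors, 15 were tested, and EIF3M beside WT1 was the only one past the threshold (log2FC 0.35, edgeR adjusted p = 0.0459), against 16.6% of all genes.

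PAX2, the paired-domain factor of the nephric duct and ureteric bud, was set apart in control replicate 3. PAX2 (ENSG00000075891; chromosome 10 of GRCh37, 102495153 to 102589701, forward strand) had 144, 161 and 577 counts in control replicates 1 to 3 and 164, 166 and 182 in the knockout libraries. Control replicate 3 was the highest of the 6 libraries, 1.91 above the mean of the other controls and 1.59 above the knockout mean in log2 CPM. Means were 3.04 ± 2.54 and 1.97 ± 0.0861 CPM (SD, n = 3 each), with a log2FC of -0.63 (SE 0.55, edgeR adjusted p = 0.458). Without control replicate 3 the direction turned, to 0.29 (SE 0.14, edgeR adjusted p = 0.0878, range over 12 alternatives 0.0878 to 0.675).

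GATA3, a zinc finger factor of the nephric duct and later of the collecting duct, was within the spread of the replicates. GATA3 (ENSG00000107485; chromosome 10 of GRCh37, 8087341 to 8117161, forward strand) had 993, 1150 and 1348 counts in control replicates 1 to 3 and 943, 1239 and 1084 in the knockout libraries. The groups overlapped almost entirely, at 12.0 ± 1.87 and 12.5 ± 1.48 CPM (SD, n = 3 each). The log2FC was 0.06 (SE 0.17, edgeR adjusted p = 0.839), or 0.15 without control replicate 3 (edgeR adjusted p = 0.222), and its sign turned with limma-voom, without TMM, and without control replicate 1 or knockout replicate 2.

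PAX8, which in the mouse acts together with PAX2 in forming the nephric lineage, did not pass the filter on low counts and was not tested. PAX8 (ENSG00000125618; chromosome 2 of GRCh37, 113973574 to 114036498, reverse strand) had 8, 1 and 9 counts in control replicates 1 to 3 and 6, 2 and 4 in the knockout libraries. The groups overlapped, and a difference was not detectable at this depth. PAX8-AS1, on the opposite strand, covers 22.4% of the PAX8 exons and had 5 to 12 counts per library. The libraries were made strand-specific, but whether the counting used strand is not given in the sources used here, so reads of such antisense pairs cannot be told apart.

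**Figure D2:**
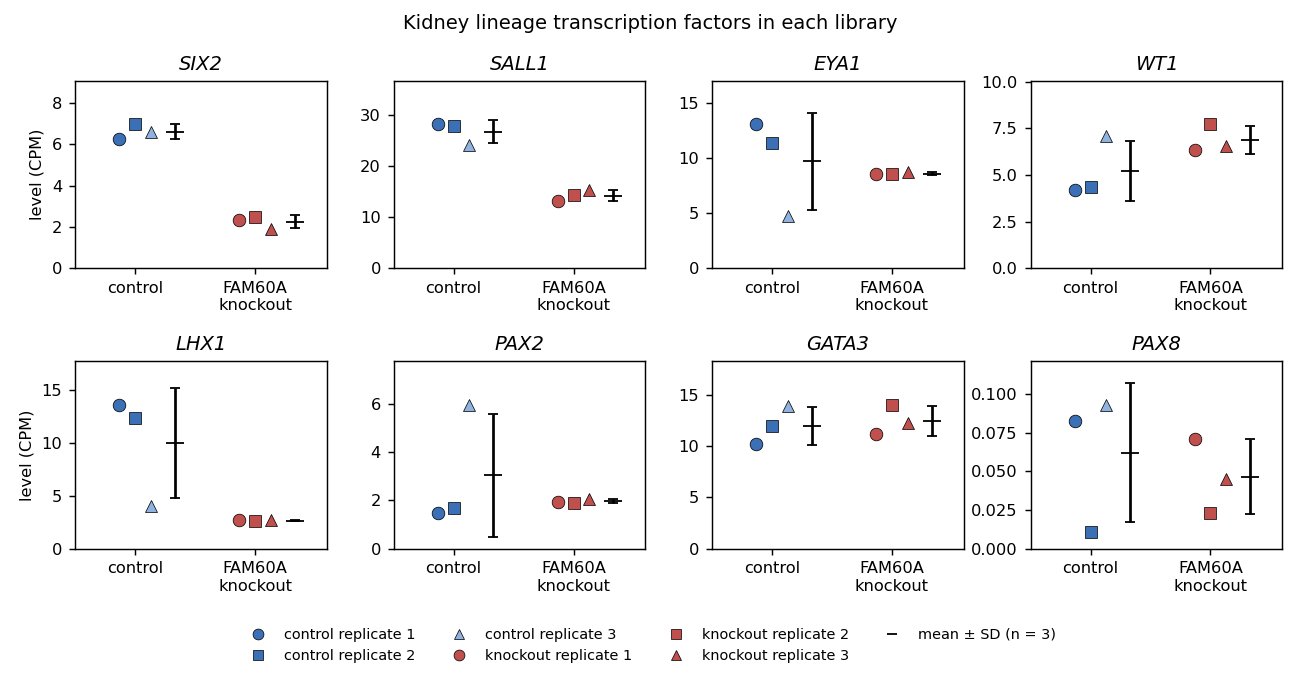
Level of each kidney factor in CPM (vertical axis, from 0) in 3 control and 3 FAM60A-knockout libraries, with the mean ± SD (n = 3) beside the points. SIX2 and SALL1 separate all controls from all knockout libraries by a wide gap, LHX1 by a narrow one, and control replicate 3 (light triangle) leaves the other controls for EYA1, WT1, LHX1 and PAX2.

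In all, 3 of the 7 factors tested were called at an edgeR adjusted p of at most 0.05 (LHX1, SIX2 and SALL1), against 16.6% of all genes tested. All 3 were lower in the knockout libraries, a direction taken by 8.67% of all genes tested, and none was among the 7.96% called higher. With the additional threshold of an absolute log2 fold change of 1, LHX1 and SIX2 were called, against 7.06% of all genes. The groups did not overlap for the same 3 factors, against 41.6% of all genes tested. The median log2 fold change of the 7 factors was -0.63, against -0.01 over all genes. Without control replicate 3, EYA1 and WT1 were called as well, making 5 of 7, but 65.6% of all genes were called in that fit. In bulk RNA, fewer cells that transcribe a gene and less RNA per cell cannot be told apart.

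**Figure D3:**
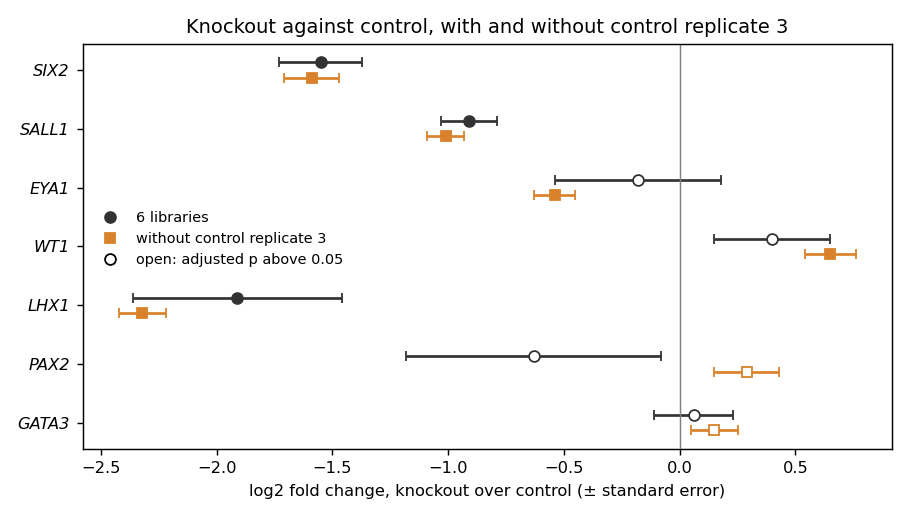
Log2 fold change of the 7 factors tested (knockout over control, ± standard error) with all 6 libraries (circles) and without control replicate 3 (squares); filled symbols have an adjusted p of at most 0.05. SIX2 stayed near -1.55 and SALL1 near -0.91 in both fits, whereas PAX2 moved from -0.63 to 0.29.

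The 7 factors tested did not share a single pattern over the 6 libraries. For each, the most similar gene was sought among 16246 genes (mean count 50 or more), by the root-mean-square difference of log2 CPM after centring each gene on its own mean. Nearest to SIX2 was REEP6 (difference 0.105), followed by H2BC21 and FSD1. FSD1 had 5015, 5291 and 5025 counts in control and 1402, 1713 and 1530 in knockout libraries. Nearest to LHX1 was NES, which encodes the intermediate filament nestin of neural progenitors (0.0775), with 1768, 1653 and 582 counts in control and 314, 287 and 350 in knockout libraries. BRME1 and AMOTL2 came next. Nearest to SALL1 were MGAT5B (0.0544), ARID3B and ZC3H18, and nearest to EYA1 were LRRC8A (0.0312), CD164 and ZFX. For PAX2 they were DICER1-AS1 (0.0511), ADM2 and ATP2A3, for WT1 SH3RF2 (0.0312), PSMC4 and MAPK3, and for GATA3 ALDH3A1 (0.0441), CDIP1 and ANXA11. Likeness over 6 libraries is a description of these libraries.

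For the factors other than WT1, levels were also set beside those of their paralogues, which made up most of each family's per-length level. Per length, SIX2 made up 17.3 ± 4.92% of its homeobox family in control and 5.01 ± 0.495% in knockout libraries (SD, n = 3 each). The SIX2 share was 19.9%, 20.3% and 11.6% in control replicates 1 to 3. SIX6, an eye and pituitary factor, fell from 60, 68 and 51 counts to 4, 13 and 14 (log2FC -2.37, edgeR adjusted p = 0.018). SALL1 made up 27.5 ± 6.55% of the SALL family in control and 19.1 ± 0.987% in knockout libraries, below SALL2 at 61.6 ± 11.7% and 75.1 ± 1.52%. SALL3 fell with SALL1, from 1360, 1216 and 581 counts in the controls to 376, 350 and 418 in the knockout libraries (log2FC -1.31, edgeR adjusted p = 0.0423).

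LHX1 made up 22.2 ± 10.2% of the LHX family in control and 7.93 ± 0.597% in knockout libraries. Its share was 29.8%, 26.3% and 10.6% in control replicates 1 to 3. LHX2, known from forebrain and limb, was the largest part at 39.0 ± 3.55% and 40.7 ± 3.36%. LHX6 also fell (348, 380 and 294 counts to 186, 179 and 167; log2 fold change -0.78, edgeR adjusted p = 0.0345). LHX8 had 7, 7 and 61 counts in control and 156, 154 and 156 in knockout libraries, without passing the edgeR test on all libraries (log2FC 2.78, edgeR adjusted p = 0.0678). It was called by DESeq2 and limma-voom, and by edgeR when control replicate 3 was omitted (log2FC 4.57, adjusted p = 2.11e-12). EYA1 was the smallest part of its family, at 7.19 ± 3.16% in control and 7.83 ± 0.132% in knockout libraries. EYA3 was the largest part in every library except control replicate 3, where EYA2 took 41.7% and EYA3 37.0%. GATA3 made up 13.2 ± 4.44% and 18.5 ± 0.968% of the GATA family, in which GATA6, an endoderm and heart factor, led with 51.1 ± 12.7% and 38.5 ± 0.25%. GATA5 had 29, 18 and 13 counts in the controls and at most 2 in any knockout library, below the floor of 3 counts per library, which makes the knockout level at least 5.98-fold lower (edgeR adjusted p = 0.0126).

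Among the PAX genes the kidney members were minor. PAX2 made up 7.84 ± 5.81% of the family's per-length level in control and 5.41 ± 0.356% in knockout libraries, and PAX8 0.146 ± 0.104% and 0.116 ± 0.0651%. PAX3, a neural crest and muscle factor, averaged 41.8 ± 11.3% in the controls and led in control replicates 1 and 2. PAX9, a factor of pharyngeal pouches and teeth, led in the knockout libraries with 41.8 ± 0.32% and in control replicate 3, where it took 31.0% and PAX3 28.7%. PAX9 had 488, 493 and 1062 counts in control and 1044, 1200 and 1178 in knockout libraries (log2FC 0.90, edgeR adjusted p = 0.11), and 1.34 without control replicate 3 (edgeR adjusted p = 8.82e-11). DESeq2 and limma-voom called PAX9 on all libraries. PAX7, the paralogue of PAX3, fell from 319, 315 and 77 counts to 3, 6 and 1 (log2FC -5.95, SE 0.81, edgeR adjusted p = 0.00949; -6.40 without control replicate 3). Outside the kidney factors, 27 paralogues were tested, and 5 of them were called, all lower: PAX7, GATA5, SIX6, SALL3 and LHX6. That share is near the 16.6% of all genes called in either direction, but above the 8.67% of all genes called lower. The median log2 fold change of the 27 was -0.17. None of the 5 calls held without knockout replicate 1 or 3, PAX7 alone held without knockout replicate 2, and PAX7 and GATA5 held without control replicate 1 or 2. Of the 27, 18 were called without control replicate 3, near the 65.6% of all genes called in that fit.

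**Figure D4:**
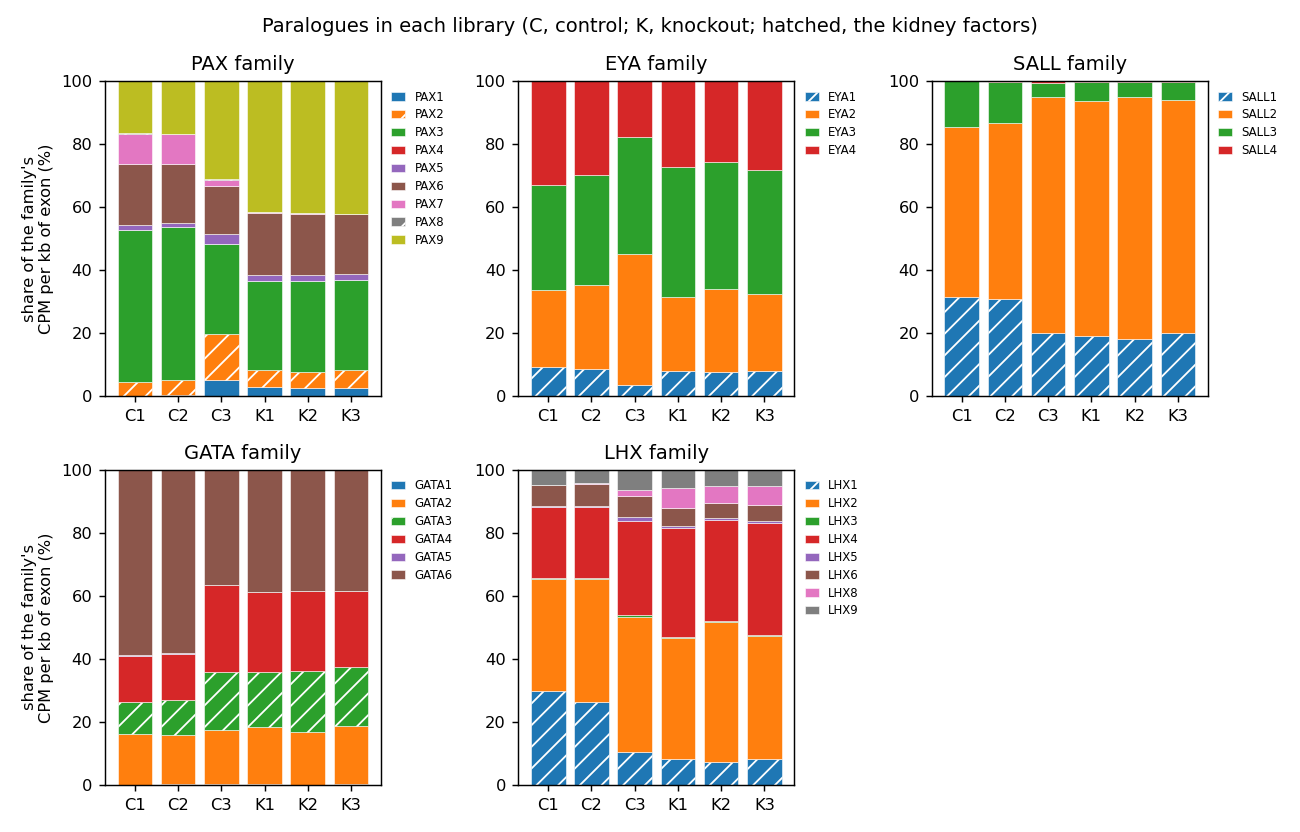
Share of the summed level of 5 families (CPM per kb of exon, in %) taken by each paralogue, in control libraries C1 to C3 and knockout libraries K1 to K3, with the kidney factors hatched. LHX1 shrinks from 22.2% to 7.93% of its family on average, and control replicate 3 lies near the knockout libraries for the LHX1, PAX3, GATA6 and SALL1 shares.

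The partners of these factors were measured too. Of 6 tested, ZFPM1, a cofactor of GATA proteins, and PAXIP1, a PAX-interacting protein, fell, against 8.67% of all genes called lower. Their log2FC values were -1.04 (edgeR adjusted p = 0.0221) and -0.43 (edgeR adjusted p = 0.0262). LDB1, the bridging partner of LIM homeodomain proteins, was abundant in every library, at 9518 to 12441 counts (log2FC -0.07, edgeR adjusted p = 0.625). DACH1, a partner of EYA proteins that was chosen after its values were seen, had 1149, 1131 and 1803 counts in control and 1721, 1984 and 1852 in knockout libraries (log2FC 0.60, edgeR adjusted p = 0.0948). The calls of ZFPM1 and PAXIP1 were lost without any one library other than control replicate 3.

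To place the factors in the wider programme, 63 further genes of kidney development were examined in 5 lists. Of these, 50 were tested and 9 were called, 3 higher and 6 lower, with a median log2 fold change of 0.13 against -0.01 over all genes, and the groups did not overlap for 23 of the 50. Both counts are near the shares among all genes, 16.6% called and 41.6% without overlap. Of 52 tested without control replicate 3, 25 rose and 17 fell, in a fit that called 65.6% of all genes. In each of the other fits that left out 1 library, 1 or 2 genes remained called. DCN, a stromal proteoglycan, was called in all 6 of these fits.

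All 12 further nephron progenitor genes passed the filter on low counts, and HOXA11 alone passed the test; this homeobox gene patterns the metanephric mesenchyme and fell from 2647, 2975 and 2536 counts to 1235, 1619 and 1190 (log2FC -0.86, SE 0.15, edgeR adjusted p = 0.0181). HOXD11, its partner in kidney development, had 1814, 1742 and 1249 counts in control versus 1504, 1646 and 1623 (log2FC 0.15, edgeR adjusted p = 0.57). ROBO2 and ITGA8, a receptor and an integrin of the cap mesenchyme, were chosen after their values were seen. ROBO2 had 19, 8 and 1081 counts in control replicates 1 to 3 and 1252, 1263 and 1531 in the knockout libraries, and ITGA8 had 343, 283 and 1677 against 2662, 2371 and 2755. Control replicate 3 lay near the knockout libraries for ROBO2 and between the groups for ITGA8, and neither was called by edgeR (adjusted p = 0.398 and 0.106), while DESeq2 and limma-voom called ITGA8. Both passed without control replicate 3, with log2FC values of 6.75 and 3.18.

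Of 12 ureteric bud genes tested, 3 fell and 1 rose, against 16.6% of all genes called. TFAP2A, a factor of surface ectoderm, neural crest and distal tubule, had 9553, 9086 and 2683 counts in control and 1259, 1551 and 1392 in knockout libraries (log2FC -2.19, SE 0.46, edgeR adjusted p = 0.0275; -2.61 without control replicate 3). SOX8 fell by 1.58 on the log2 scale (edgeR adjusted p = 0.0284), and RET, the receptor through which GDNF drives bud outgrowth, by 0.80 (edgeR adjusted p = 0.0371). SPRY1, an inhibitor of that signal, rose by 0.80 (edgeR adjusted p = 0.0201). ETV5, a transcription factor downstream of RET that was chosen after its values were seen, had 2835, 2729 and 290 counts in control and 1126, 1336 and 1240 in knockout libraries. Control replicate 3 was the lowest of the 6 libraries, and the difference between groups was not called (edgeR adjusted p = 0.657), though it was without this library (log2FC -1.05, edgeR adjusted p = 3.08e-10).

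The renal vesicle list held 13 genes, of which 8 were tested and NOTCH2, the Notch receptor of proximal nephron formation, rose by 0.66 on the log2 scale (edgeR adjusted p = 0.0218). Of the list's factors of nephron segments, HNF4A, IRX1 and IRX2 had at most 18 counts in any library, whereas IRX3 had 1325 to 2533 and POU3F3 2740 to 4014, the last 2 chosen after their values were seen. In the stromal list, DCN had 0, 1 and 1 counts in control and 30, 33 and 33 in knockout libraries, at least 11.9-fold higher (edgeR adjusted p = 0.00373). FOXD1, the defining factor of renal stroma, had 1523, 1767 and 1653 counts in control versus 1682, 2166 and 1643 (log2FC 0.31, edgeR adjusted p = 0.192).

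Several markers of differentiated nephron segments were at or near 0. Among 16 genes, UMOD (thick ascending limb), SLC12A3 (distal tubule) and AQP2 (collecting duct) had at most 3 counts in any library. PODXL, a podocyte and progenitor sialomucin, had 3794 to 7678 counts in every library. Of the 10 tested, 2 fell, among them AQP3, a water channel of the collecting duct, by 1.21 on the log2 scale (edgeR adjusted p = 0.0131), against 8.67% of all genes called lower. LRP2, the megalin receptor of the proximal tubule, had 860, 685 and 3654 counts in control and 5037, 4647 and 5823 in knockout libraries, with control replicate 3 between the groups (log2FC 1.73, edgeR adjusted p = 0.112; 2.87 without it, adjusted p = 2.68e-15), and LRP2 was called by DESeq2 and limma-voom on all libraries.

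**Figure D5:**
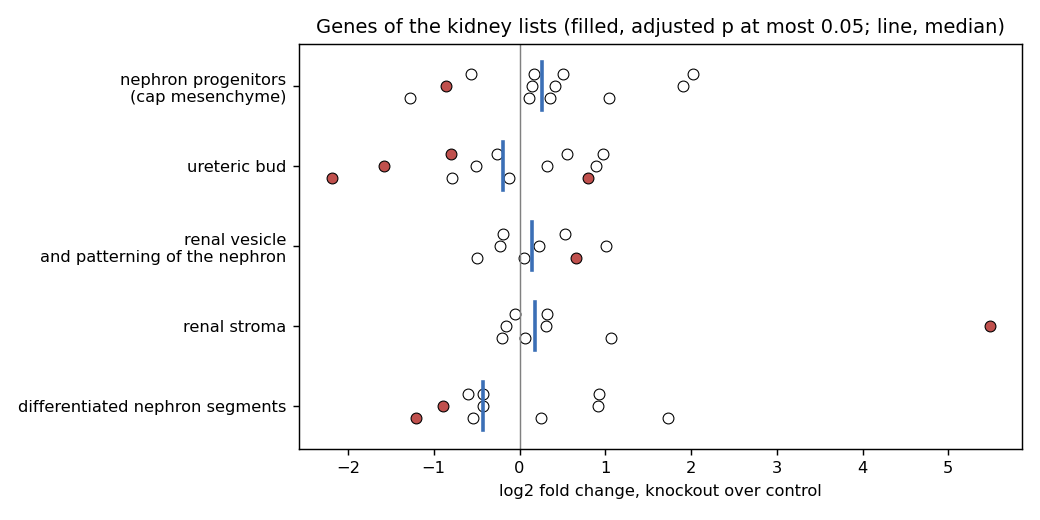
Log2 fold change (knockout over control) of the 50 kidney genes tested, 1 point per gene in 5 lists, filled where the adjusted p was at most 0.05, with a line at each list's median. The 9 filled points include TFAP2A at -2.19 and DCN at 5.48, the latter fitted against 0 to 1 control counts.

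Markers of other cell types moved between the same libraries, and their part in the results was not tested. Neuronal genes are known to be transcribed in HEK293 cells. Of 6 neuronal markers, 4 were tested and INA, TUBB3 and NEFM fell, a direction called for 8.67% of all genes. INA, a neuronal intermediate filament gene, had 3741, 3495 and 4504 counts in control and 964, 1018 and 883 in knockout libraries (log2FC -1.88, SE 0.14, edgeR adjusted p = 0.0026), with control replicate 3 among the controls as for SIX2. Its call held in each of the 6 fits that left out 1 library, while those of TUBB3 and NEFM held in none of them but the fit without control replicate 3. The neuronal list summed to 120 CPM in control replicates 1 and 2, 192 in control replicate 3 and 93.8 to 109 in the knockout libraries, and NEFL gave 77.2% of that sum. STMN2 and ELAVL4 had at most 22 and 8 counts.

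The epithelial list of 6 genes summed to 947 to 1100 CPM in every library, but its members differed in opposite directions. No gene of it was called by edgeR on all libraries, where 3 had an unadjusted p under 0.05. DESeq2 called EPCAM and KRT8, limma-voom called EPCAM, and without control replicate 3 edgeR called CDH1 and EPCAM higher and KRT8 and KRT18 lower. CDH1 (E-cadherin), chosen like KRT18 after its values were seen, had 198, 147 and 1792 counts in control and 2164, 2184 and 2474 in knockout libraries (log2FC 1.83, edgeR adjusted p = 0.218; 3.84 without control replicate 3). EPCAM had 10669, 10521 and 29052 counts in control versus 37291, 38691 and 37289 (log2FC 1.33, edgeR adjusted p = 0.0733; 1.96 without control replicate 3). KRT8, a keratin of simple epithelia that made up 47.4% of the sum, had 69249, 71970 and 37378 counts in control versus 29461, 33595 and 28809 (log2FC -0.80, edgeR adjusted p = 0.0758; -1.08 without control replicate 3). Its partner keratin KRT18 had 13143, 13082 and 7399 counts in control versus 6031, 7173 and 6167 (log2FC -0.64, edgeR adjusted p = 0.104; -0.90 without control replicate 3). The mesenchymal list of 6 genes, 4 of them tested, summed to 906 and 916 CPM in control replicates 1 and 2, 422 in control replicate 3 and 388 to 440 in the knockout libraries, with VIM at 72.8% of the sum. VIM, which encodes the intermediate filament vimentin, had 67461, 67908 and 28924 counts in control versus 22202, 27081 and 22257 (log2FC -1.04, edgeR adjusted p = 0.0745). It was called by DESeq2 and, when control replicate 3 was omitted, by edgeR (log2FC -1.38, adjusted p = 1.36e-11). In this list COL1A1 fell by 0.66 on the log2 scale (edgeR adjusted p = 0.0361), LUM rose by 2.23 (edgeR adjusted p = 0.0463), and COL1A2 and THY1 had at most 3 counts. Neither call held when a library other than control replicate 3 was omitted. Control replicate 3 thus lay with the knockout libraries for the mesenchymal sum, which was mostly VIM, with CDH1 close to them and EPCAM between the groups. Other members of these lists did otherwise. LUM had 244, 223 and 47 counts in control and 789, 642 and 727 in knockout libraries, so control replicate 3 was the lowest of all. COL1A1 in control replicate 3, at 19.2 CPM, lay between the other controls and the knockout libraries. KRT19, chosen after its values were seen, was highest in control replicate 3 at 163 CPM.

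The other lists had low sums, although single genes of them were transcribed. The 8 adrenal markers summed to 1.94 and 1.96 CPM in control replicates 1 and 2, 10.7 in control replicate 3 and 4.76 to 5.25 in the knockout libraries, with TH at 0 or 1 counts. CHGA (chromogranin A) gave 87.0% of the sum and reached 1.42 CPM per kb of exon, above 49.1% of protein-coding genes. The 3 endothelial markers matched summed to at most 1.11 CPM, led by KDR, and the 4 blood markers to at most 1.74 CPM, led by CD14, with PTPRC at 0 to 9 counts. Of these 3 lists, 5 genes were tested and none was called by edgeR on all libraries, where CD14 and CYP17A1 had an unadjusted p under 0.05. DESeq2 called both, and limma-voom called CYP17A1. Without control replicate 3, CHGA (log2FC 1.31, edgeR adjusted p = 9.83e-09) and CYP17A1 were called higher, and KDR (-1.70), CDH5 (-2.14) and CD14 (-2.42) lower.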

How the data were processed

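RNA-seq counts of 3 control and 3 FAM60A-knockout HEK293 libraries were analysed. The authors deposited raw counts, 1 whole number for each Ensembl identifier and library. The paper's methods name Trimmomatic, Salmon and hg38 with poly(A)-selected, strand-specific libraries, the submitters' processing notes STAR 2.7.10b, featureCounts 2.0.0 and hg38, and the labels hg19. Which tools gave the deposited counts, and the annotation release, are not given in the sources used here. Symbols were matched for 60878 of 62754 identifiers. Coordinates and exon lengths came from GENCODE on GRCh37, and promoter sequences from RefSeq on GRCh38.p14.

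Knockout was compared with control over all 20992 genes that passed filterByExpr (minimum count 10), with TMM and the quasi-likelihood F-test of edgeR 4.0.16 in R 4.3.3 and Benjamini-Hochberg adjustment. The CPM of each factor was also compared by an exact permutation test (two-sided). The fit was tested on simulated data, in which no library stood apart as control replicate 3 did here. CPM used TMM-scaled library sizes, and log2 CPM a prior count of 2. A group with at most 3 counts in every library was taken as at the floor, which covers counting error only. Libraries and gene lists were grouped by their labels and by textbook roles, and the 8 factors and all lists were chosen with earlier results of these data known. Of each list, called genes without overlap between groups (at most 4) and the 2 highest per length were named, and of each family any gene with a mean of at least 10 counts. Markers at or near 0 were named after their values were seen, and other names are stated as such. Alternatives were DESeq2 1.42.0, limma-voom (limma 3.58.1) with quantile normalization, no TMM, other filters, leaving out each library, the replicate number as a block, another prior count and the longest transcript as length. The symbols PAX2-AS1, SALL1-DT, EYA1-AS1 and PECAM1 were not matched, and some genes of the lists are counted but not reported here by name. Figures were drawn with matplotlib 3.10.9.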

Additional observations from a re-analysis of the deposited data

How the results depend on the processing

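SIX2, SALL1 and LHX1 were lower in the knockout libraries under all 12 alternatives. With the replicate number as a block, 407 genes, 1 kidney factor (SIX2) and 1 gene of the kidney lists (DCN) were called, against 3491, 3 and 9. Deviations of same-numbered libraries correlated at 0.01, 0.03 and -0.04, so no pairing by number was seen. Control replicate 3 dominated the control deviations, so these values cannot decide whether same-numbered libraries were prepared together. Leaving out 1 library gave 167 to 14221 genes, 0 to 5 kidney factors and 1 to 42 genes of the kidney lists. The highest of each came without control replicate 3. No kidney factor was called by edgeR without knockout replicate 1 or 3, where 3 had an unadjusted p under 0.05, and DESeq2 on all libraries called 3. DESeq2 and limma-voom each called 14 genes of the kidney lists. In fits without 1 library the log2 fold change lay between -0.98 and 0.29 for PAX2, -0.54 and 0.0608 for EYA1, and -0.0756 and 0.15 for GATA3. The last was also -0.00541 with limma-voom and -0.0513 without TMM. Without TMM the median of all genes shifted to -0.12 and the calls to 1235 higher and 2668 lower, against 1671 and 1820. Among paralogues outside the kidney factors, 10 were called with DESeq2, 2 with at least 10 counts in every library 0 without knockout replicate 1 or 3, and 18 without control replicate 3. A prior count of 0.5 moved none of the 7 factors tested beyond the spread between replicates. PAX8, at 1 to 9 counts, was below the depth needed for a comparison (log2 fold change -0.41 without a filter, edgeR adjusted p = 0.772).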
